A study of Mus musculus with 2 samples.

Results

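The CXC chemokine ligands are small secreted proteins, named for a pair of cysteines separated by a single residue, that attract leukocytes through G-protein-coupled receptors. The 8 ligand genes described here are Cxcl1, Cxcl2, Cxcl9, Cxcl10, Cxcl11, Cxcl12, Cxcl14 and Cxcl16. They were taken as the probes that are not controls and that carry 1 of these symbols as gene name on the array, which gave 11 probes of 60 bases. The 8 genes stand among 22801 named genes on the array, of which 13773 were measured, meaning that the probe used was well above background, by the scanner flag, on at least 1 array. Of the 8 ligands, 5 were measured and 3, Cxcl1, Cxcl9 and Cxcl12, were not.

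The data are 2 single-colour Agilent arrays of RAW264.7, a mouse macrophage-like cell line, with 1 array of control cells and 1 array of Lamtor1 knockdown cells. Lamtor1 is the membrane anchor of Ragulator, a lysosomal scaffold for the nutrient-sensing kinase complex mTORC1. The series asks what TFEB, a transcription factor under mTORC1 control, does to transcription in Lamtor1-deficient cells. The labels describe short hairpin RNA against Lamtor1, given as a lentiviral mixture of 2 vectors and followed by limiting dilution, for the control sample as well as for the knockdown. The labels do not say how the control cells differ from that, or whether a sample is 1 clone, and they name no stimulus such as interferon or endotoxin for either sample.

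Of 43020 spots that are not controls, 53.3% (control) and 52.9% (knockdown) passed the scanner's flag for signal well above background. None was saturated, and slide and scan were shared. Lamtor1 itself was at 4.34% of its control signal after knockdown. A single array per group allows no test, so every difference below describes these 2 arrays only and has no replicate check. Levels are log2 signals relative to the array's own 75th percentile, and differences are knockdown minus control. The error given after a difference is that of the scanner software's own error model for the spots, which covers spot measurement and not cultures or labelling. All 8 macrophage markers examined were well above background on both arrays, with 1 at least 2-fold lower and 1 at least 2-fold higher. That share, 12.5% each way, is near the 8.35% (lower) and 9.0% (higher) of all measured genes. Of the brightest, the differences were -0.82 for Csf1r, the receptor of macrophage colony-stimulating factor, 0.60 for Fcer1g and -0.45 for Lyz2, and Csf1r read -1.25 and -1.34 at its other probes. Adgre1, which encodes the macrophage surface marker F4/80, was 2.95-fold lower (-1.56, and -1.61 at its other probe), and Cd68, a lysosomal glycoprotein, was 2.33-fold higher; these were named after their values were seen. The part that these marker differences have in the ligand values was not tested.

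CXC ligands fall into functional groups. Cxcl1 and Cxcl2 act on the neutrophil receptor Cxcr2 and are classical targets of NF-kappaB downstream of Toll-like receptors and interleukin-1. Cxcl9, Cxcl10 and Cxcl11 share the receptor Cxcr3 of activated T and natural killer cells and are induced by interferons, in part through IRF factors. Cxcl12, the ligand of Cxcr4, and Cxcl14 are made without an inflammatory stimulus in many stromal and epithelial tissues. Cxcl16 is made as a membrane-anchored protein that binds Cxcr6 and also acts as a scavenger receptor in macrophages, and proteases of the ADAM family release its soluble form.

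Most of the measured ligands were lower on the knockdown array. Cxcl14 was at least 12.3-fold lower by the bound rule given in the processing section. Cxcl10 was 16.6-fold lower, Cxcl2 was 4.36-fold lower and Cxcl16 was 2.86-fold lower, whereas Cxcl11 stayed within 2-fold. Thus 4 of the 5 measured ligands were lower by 2-fold or more and 0 were higher by as much, against 8.35% (lower) and 9.0% (higher) of the 13773 measured genes. Cxcl14 counts as measured through the control array alone, where it was high. The median log2 difference was -2.13, also with Cxcl14 at its bound, over the 5 measured ligands and -0.05 over all measured genes. In a bulk sample, fewer cells that express a gene and less RNA of it per cell cannot be told apart. With normexp background correction, which shrinks differences of dim spots, 3 of the 5 ligands were at least 2-fold lower, against 4.45% of all measured genes.

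**Figure D1:**
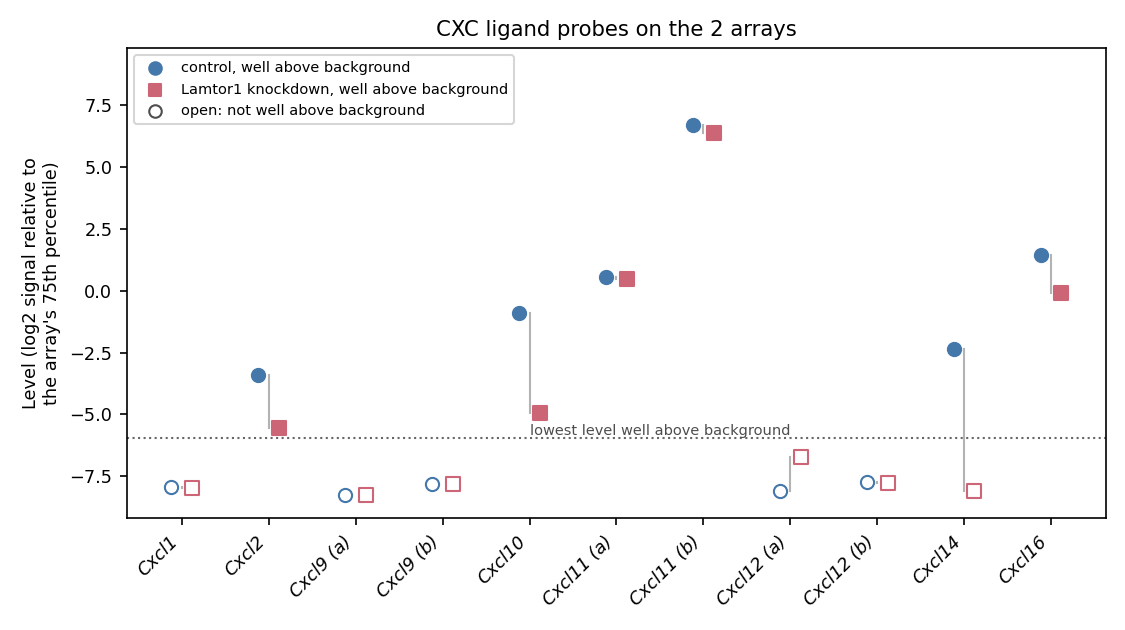
Level of each of the 11 CXC ligand probes (y axis, log2 signal relative to the array's 75th percentile) in the control (circles) and the Lamtor1 knockdown (squares), with filled symbols for probes well above background and a and b for different probes of a gene. Heights of different probes are not comparable with each other; within a probe, Cxcl2, Cxcl10, Cxcl14 and Cxcl16 lie lower on the knockdown array, both Cxcl11 probes lie close together, and the Cxcl1, Cxcl9 and Cxcl12 probes are open on both arrays.

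The stretches of DNA before the transcript starts of the 3 lower ligands for which the RefSeq table holds one are shown because these genes moved in the same direction. Each is the 250 bases before the start, from RefSeq on the GRCm38.p6 build, 5′ to 3′ on the gene's own strand: chr5:90903649-90903898 on the plus strand for Cxcl2, chr5:92348890-92349139 on the minus strand for Cxcl10 and chr13:56296552-56296801 on the minus strand for Cxcl14. Capitals mark matches to any of 3 motifs searched on both strands: the interferon-stimulated response element core GAAANNGAA, the NF-kappaB core GGNNNTTCC and TCACGTGA, the core of the CLEAR element that TFEB binds.
Cxcl2: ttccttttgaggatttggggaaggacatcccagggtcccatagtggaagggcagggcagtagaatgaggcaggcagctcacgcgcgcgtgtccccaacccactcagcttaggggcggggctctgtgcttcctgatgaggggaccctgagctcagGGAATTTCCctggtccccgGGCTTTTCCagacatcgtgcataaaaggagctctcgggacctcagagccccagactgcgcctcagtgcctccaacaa
Cxcl10: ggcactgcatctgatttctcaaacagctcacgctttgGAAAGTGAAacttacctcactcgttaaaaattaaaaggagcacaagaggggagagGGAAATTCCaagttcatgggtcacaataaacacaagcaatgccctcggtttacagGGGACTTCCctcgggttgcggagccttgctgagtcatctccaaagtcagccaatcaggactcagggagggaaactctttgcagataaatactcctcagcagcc
Cxcl14: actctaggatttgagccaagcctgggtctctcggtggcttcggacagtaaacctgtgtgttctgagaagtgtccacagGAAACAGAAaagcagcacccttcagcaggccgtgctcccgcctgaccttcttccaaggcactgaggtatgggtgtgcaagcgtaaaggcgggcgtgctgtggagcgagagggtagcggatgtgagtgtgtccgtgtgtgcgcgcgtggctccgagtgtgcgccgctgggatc

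Of the 8 ligands, 6 had such a window in the table. The Cxcl2 window held the NF-kappaB core at 2 positions, from base -96 to -88 and from -77 to -69 relative to the start. The Cxcl10 window held it at 2 positions, from -158 to -150 and from -103 to -95, and held the interferon core from -213 to -205. In the Cxcl14 window the interferon core matched from -172 to -164. No match overlapped a match to another motif. The CLEAR core was in 0 of the 6 windows.

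The same motifs lay before ligands that were not measured. Cxcl1, the neighbour and close paralogue of Cxcl2, also held the NF-kappaB core at 2 positions, and Cxcl9 held it at 2 positions beside 1 interferon core. Cxcl12 held none of the 3 motifs. Among all 32851 windows of the same length, 15.7% held the NF-kappaB core, 7.13% the interferon core and 0.785% the CLEAR core. A match is a description of these letters and shows no binding, and the arrays do not measure any.

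**Figure D2:**
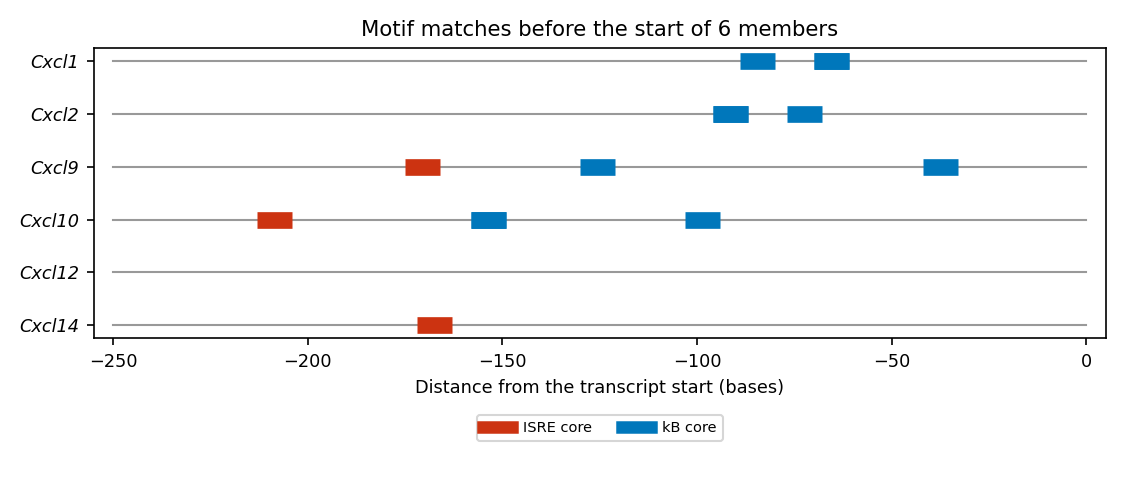
Positions of motif matches (coloured blocks) in the 250 bases before the transcript start (x axis, bases from the start) of the 6 ligands with a RefSeq window. NF-kappaB cores (blue) lie in the windows of Cxcl1, Cxcl2, Cxcl9 and Cxcl10, interferon cores (red) in those of Cxcl9, Cxcl10 and Cxcl14, and Cxcl12 has no match.

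Cxcl10, the best known interferon-inducible ligand of Cxcr3, had an intensity of 627 in the control and 40.5 in the knockdown. Its single probe (A_55_P2016462, chr5:92775781-92775840 on the minus strand in the mm9 build of the files) was well above background on both. Its level went from -0.90 in the control to -4.95 in the knockdown, a difference of -4.05 ± 0.25. The knockdown signal was therefore 6.03% of the control signal. Of all measured genes, 0.726% had a difference as low or lower. With normexp the difference was -2.83, or 7.10-fold.

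Cxcl9 was not measured. Its intensities were 3.83 and 4.09 (control and knockdown) at probe A_51_P461665 and 5.25 and 5.53 at probe A_55_P1977038, and the scanner software had replaced all 4 by surrogates, the values it writes for a spot not above background. No fold is given, since neither array shows the transcript above background. The 2 probes lie at chr5:92752191-92752250 and chr5:92752796-92752855 (mm9, minus strand).

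Cxcl11 differed from Cxcl10 in both its values and its probes. Probe A_55_P2044413 (chr5:92788640-92788699, mm9, minus strand) read 1728 in the control and 1733 in the knockdown, a difference of -0.10 ± 0.20. Probe A_55_P2160387 (chr5:92788567-92788626) read 121664 and 103887, a difference of -0.33 ± 0.20. Neither probe moved by 2-fold, and the lower value of the brighter probe was within 2 of the software's errors. The RefSeq table lists Cxcl11 as a transcribed pseudogene in the mouse reference assembly, and both probes were matched to it by symbol.

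The brighter Cxcl11 probe carries a stretch that recurs beside other genes. Of the 11 ligand probes it alone shared a run of 20 bases, on either strand, with the promoter windows of other genes, and it did so for 21 genes. Only 206 of 39429 probes on the array (0.522%) shared such runs with as many genes or more, while 3.24% shared a run with at least 1. Bases 15 to 44 of the probe are shown, with the 20-base run found beside the most genes, 14, in capitals:
Cxcl11 probe A_55_P2160387: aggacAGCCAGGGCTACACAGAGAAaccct

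These letters resemble the B1 family of short interspersed repeats, which lies in many mouse transcripts. A run of 20 bases was also shared with 7 probes of other names, all well above background on both arrays, whose differences ran from -0.19 to 0.36 with a median of -0.06. The part that other transcripts have in the Cxcl11 signal was not tested.

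Cxcl2, a neutrophil attractant of activated macrophages also known as MIP-2, had an intensity of 111 in the control and 27.2 in the knockdown. Its probe (A_51_P217463, chr5:91334534-91334593, mm9, plus strand) was well above background on both arrays, though dim on the second. The level went from -3.40 to -5.53, a difference of -2.13 ± 0.33, with the knockdown at 22.9% of the control. With normexp the difference was -0.98, or 1.97-fold, which is just short of 2-fold. Cxcl1, or KC, which shares its receptor, read 4.77 and 5.01, both surrogates, and has no fold (probe A_51_P363187, chr5:91321845-91321904, mm9, plus strand).

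For Cxcl14, made in the absence of inflammation in epithelial and stromal tissue, only a bound can be given. Its probe (A_51_P209183, chr13:56390078-56390137, mm9, minus strand) read 231 in the control, well above background, and 4.55 in the knockdown, a surrogate. Against the lowest level well above background on the knockdown array the gene was at least 12.3-fold lower. That lowest level, -5.96, is not a strict limit, since Adcy6, for example, read -5.42 there without passing the flag. The 12.3-fold bound therefore holds under this rule only. The plain log2 difference of -5.77 was taken against that surrogate and gives no exact size. With normexp it was -2.16, or 4.48-fold, which rests on a knockdown signal not well above background and is no bound.

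Cxcl12, also called SDF-1 and the ligand of Cxcr4, was not well above background at either probe on either array. Probe A_51_P172502 (chr6:117131227-117131286, mm9, plus strand) read 4.32, a surrogate, in the control and 11.97 in the knockdown. Probe A_55_P1966204 (chr6:117125026-117125085), which the array design assigns to another transcript of the gene, read 5.44 and 5.67, both surrogates. Both knockdown readings were below the scanner's flag, so the higher reading of the first probe is not counted as a difference.

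Cxcl16 was the ligand with the smallest difference among the 4 that were 2-fold lower. Its probe (A_52_P99888, chr11:70267780-70267839, mm9, minus strand) read 3176 in the control and 1191 in the knockdown, well above background on both. The level went from 1.44 to -0.08, a difference of -1.51 ± 0.20, and the knockdown stood at 35.0% of the control. The value moved little with the processing, from -1.56 to -1.42 over 11 settings, whereas Cxcl10 ran from -4.09 to -2.83 and Cxcl2 from -2.17 to -0.98.

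**Figure D3:**
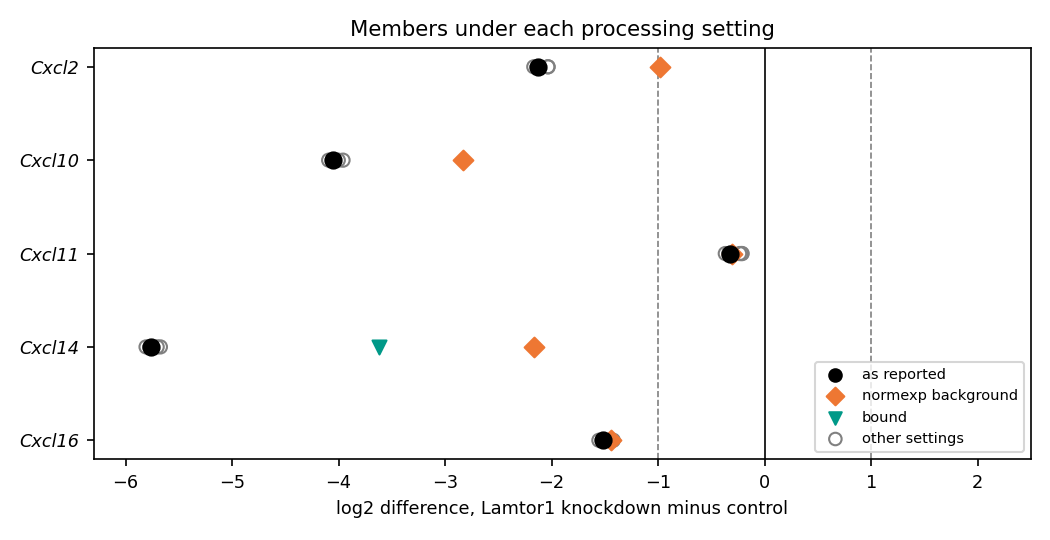
Log2 difference, knockdown minus control (x axis), of the 5 measured ligands as reported (black), with normexp background correction (orange), by bound (green, Cxcl14 only, whose black point rests on a surrogate) and under the other settings (open circles). Dashed lines mark 2-fold. All values lie below 0; those of Cxcl16 and Cxcl11 lie close together, and normexp moves Cxcl2, Cxcl10 and Cxcl14 toward 0.

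Of the other CXC ligands on the array, Cxcl3, Cxcl5, Cxcl13, Cxcl15, Cxcl17, Pf4 and Ppbp, only Pf4 was measured. Pf4, the platelet chemokine also known as CXCL4, was 19.4-fold lower, from a level of -0.51 to -4.79, and 9.10-fold lower with normexp.

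Of 8 receptor genes, 3 were measured, 2 of them higher by 2-fold or more and 0 lower by as much, where 9.0% of all measured genes were that much higher. With 3 genes measured, no direction is given for the receptors as a group. Cxcr4, the receptor of Cxcl12, was 9.93-fold higher in the knockdown, from -3.88 to -0.57, and 6.04-fold higher with normexp. Cxcr3, the receptor of Cxcl9, Cxcl10 and Cxcl11, was 2.56-fold higher, from -1.26 to 0.10, and 2.40-fold with normexp. Cxcr5, which binds Cxcl13, had a difference of -0.34. Cxcr1 and Cxcr2, the receptors of the neutrophil attractants, Cxcr6, the receptor of Cxcl16, and the atypical receptors Ackr1 and Ackr3 were not well above background on either array.

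Among 8 enzymes that cut CXC ligands, 3 were measured. The ADAM proteases that shed Cxcl16 stayed within 2-fold, with differences of 0.54 for Adam10 and -0.56 for Adam17, the latter at -0.54 by its other probe. Mmp12, the macrophage metalloelastase, was 29.9-fold higher, from -4.97 to -0.07, and 11.8-fold higher with normexp. Its other probe was not well above background on either array. Dpp4, which trims the first residues of several CXC ligands, was not well above background.

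In the lists of the interferon and NF-kappaB axes, few genes were 2-fold apart. These lists hold targets and feedback genes as well as inducers, and the arrays do not show which of them act on the ligands. Of 16 genes of the interferon and IRF axis, 14 were measured. Of these, 2 (14.3%) were at least 2-fold lower and 0 higher, near the 8.35% of all measured genes that were lower. The median was -0.32, against -0.05 over all measured genes. Differences below 0 were found for 12 of the 14, and for 7480 of all 13773 measured genes. Irf7, the master factor of type I interferon induction, was 23.7-fold lower, from 0.29 to -4.28, and 11.4-fold lower with normexp. Irf9, a DNA-binding factor activated by interferon signalling, was 2.92-fold lower. Ifngr1, a subunit of the interferon gamma receptor, had a difference of -0.76, and Socs1, a feedback inhibitor of cytokine signalling, one of -0.66. The ligand genes Ifnb1 and Ifng were not well above background on either array.

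Of 21 genes of the NF-kappaB axis, 20 were measured, 2 were at least 2-fold lower, 0 higher, and the median was 0.11. That share, 10%, is also near the 8.35% of all measured genes. Il1b, the inflammatory cytokine interleukin-1 beta, was well above background in the control alone and at least 2.20-fold lower by the bound rule. Nfkbiz, an inducible nuclear cofactor of NF-kappaB, was 2.53-fold lower. With normexp these were 1.69-fold and 1.62-fold, so that 0 of the 20 passed 2-fold. Nfkbia, the main inhibitor of NF-kappaB and itself one of its targets, had a difference of -0.73, and the receptor gene Tlr2 one of -0.67.

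Of 13 ligand genes of the sister family, the CC chemokines, 8 were measured. Of these 4 were higher by 2-fold or more, against 9.0% of all measured genes, 4 stayed within 2-fold, 0 were lower by as much, and the median difference was 0.94. The monocyte attractant Ccl2 was 5.36-fold higher, Ccl4 2.68-fold and Ccl3 2.03-fold. Ccl7, not well above background in the control, was at least 2.18-fold higher by the bound rule. Ccl3 lies at the threshold: with quantile normalization, or with scaling over probes above background, 3 of the 8 were at least 2-fold higher. Of all measured genes, 9.3% (quantile) and 8.61% (scaling over probes above background) were that much higher. With normexp the count was also 3, against 5.73% of all measured genes, since Ccl7 was 1.47-fold higher. The difference between the families could not be tested with 1 array per group.

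**Figure D4:**
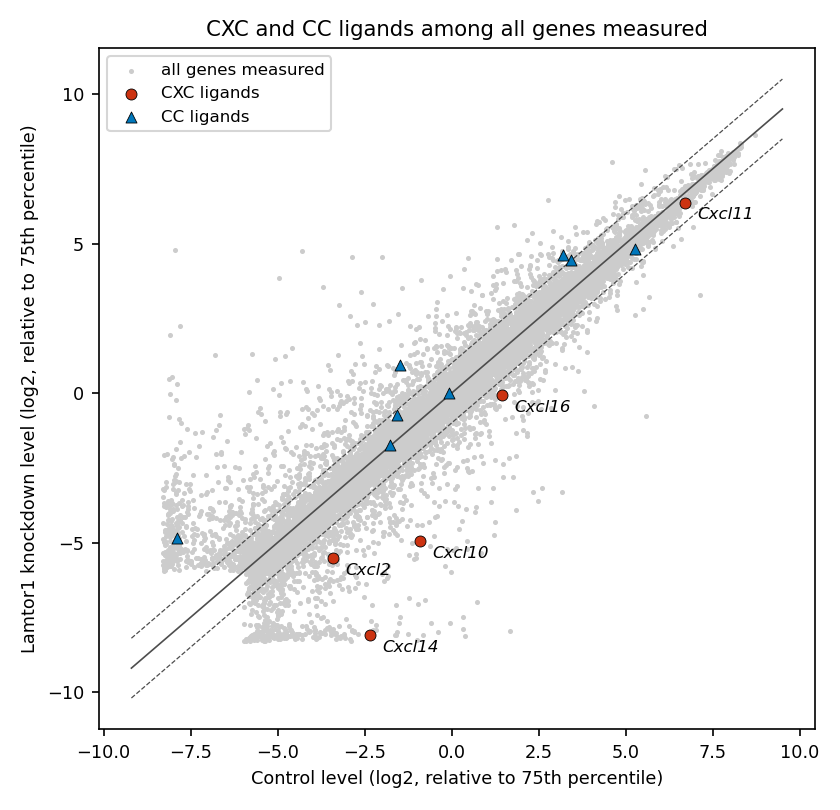
Level on the control array (x axis) against level on the Lamtor1 knockdown array (y axis), both as log2 relative to the 75th percentile, for the 13773 measured genes (grey), the 5 measured CXC ligands (red circles) and the 8 measured CC ligands (blue triangles). The solid line marks equal levels and the dashed lines 2-fold. Below the lower dashed line lie 4 of the 5 CXC ligands, 0 of the 8 CC ligands and 8.35% of all measured genes. Cxcl14 on the knockdown array and Ccl7 on the control array are drawn at readings not well above background.

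**Figure D5:**
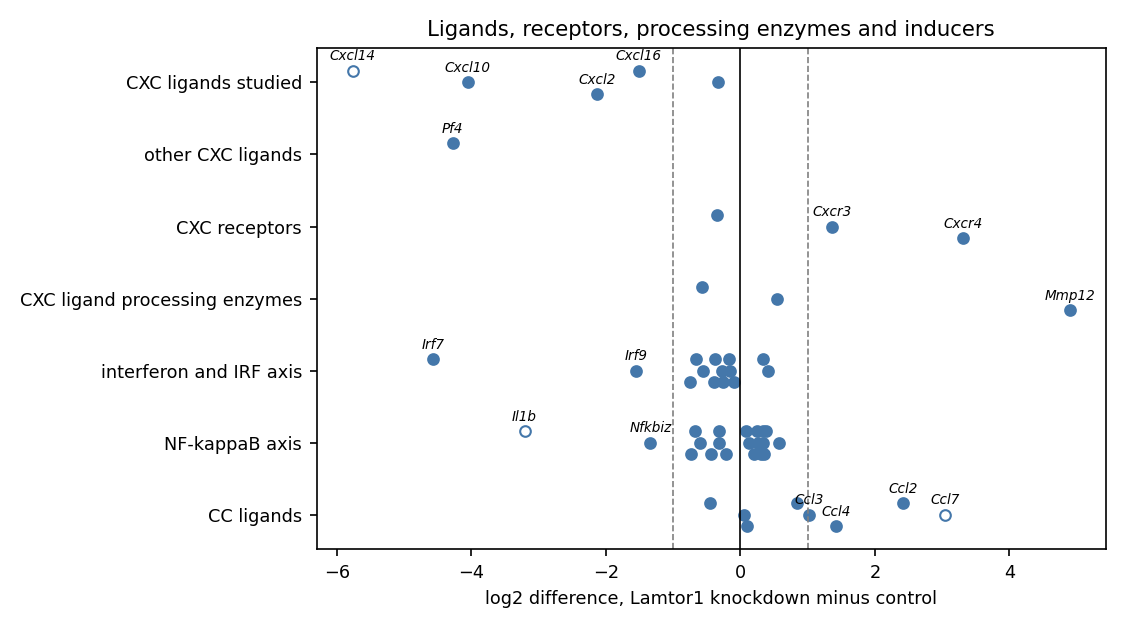
Log2 difference, knockdown minus control (x axis), of each measured gene in 7 lists, with open circles for genes above background on 1 array only and names for those at least 2-fold apart. The CXC ligands studied and Pf4 lie at or left of 0, the receptors Cxcr3 and Cxcr4 and 4 CC ligands lie right of the 2-fold line, and most genes of the interferon and NF-kappaB axes lie within it.

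Genes beside the ligands on the chromosomes were also examined, taking the 5 protein-coding genes on each side and those between. Around Cxcl9, Cxcl10 and Cxcl11, 8 such genes were measured, with differences from -1.32 to 0.56, and 3 were at least 2-fold lower: Naaa (-1.19), Sdad1 (-1.17) and Stbd1 (-1.32). Around Cxcl1 and Cxcl2, Pf4 and Mthfd2l (-0.43) were measured. Around Cxcl16, 6 genes were measured, with differences from -2.82 to 0.82 and a median of -0.41, and 1 was at least 2-fold lower. It was the adjacent Zmynd15, which had a difference of -2.82 and was 5.01-fold lower with normexp. Of the 3 genes measured around Cxcl14, Tgfbi (-2.66) and Tifab (-1.10) were at least 2-fold lower, and around Cxcl12 0 of 6 passed 2-fold. Of all measured genes, 8.35% were that much lower. These neighbours were named after their values were seen.

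Since Cxcl12 and Cxcl14 are products of stromal cells in tissues, markers of other cell types were read beside them. Of 8 fibroblast and stromal markers, 2 were measured. Col1a2 had a difference of 0.08. Pdgfrb, well above background in the control alone, was at least 2.09-fold lower in the knockdown by the bound rule. Of all measured genes, 8.35% were at least 2-fold lower. With normexp Pdgfrb was 1.96-fold lower, so that 0 of the 2 passed 2-fold. With 2 genes measured, no direction is given for the stromal markers as a group. Col1a1, Col3a1, Dcn, Lum, Pdgfra and Thy1 were not well above background on either array. The summed signal of the measured stromal markers was 0.0539 of the array's 75th percentile in the control and 0.0252 in the knockdown, where it includes the Pdgfrb reading that was not above background. For the macrophage markers it was 377 and 360 times that percentile. Such sums are read between the arrays within a list only, since probes of different genes differ in brightness at equal amounts. Of 6 neutrophil markers 3 were measured, 2 of them at least 2-fold higher, where 9.0% of all measured genes were that much higher. These were S100a8 (2.08) and Elane (1.16), while Ly6g, S100a9 and Mpo were not well above background on either array. With 3 genes measured, no direction is given for the neutrophil markers as a group. Their summed signal was 0.555 in the control and 1.28 in the knockdown. Among those of T and B cells 1 of 6 was measured, at 0.379 and 0.392. For epithelial and endothelial cells 1 of 6 was measured, at 0.0516 and 0.0279. The part of such cells in the ligand values was not tested.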

How the data were processed

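Total RNA (200 ng) was labelled with Cy3, per the labels, and per the submitters' processing notes the arrays were read with Agilent Feature Extraction 10.7.3.1. The unit of the deposited scanner files is a linear spot intensity, which per the file headers was detrended within the array, without local background subtraction, and replaced by a surrogate where not above background. The authors' deposited value table holds that intensity at 3 significant digits (ratio of scanner to table value 0.995 to 1.005). Other columns used are the scanner's flags and error, as deposited.

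From these, the log2 of each intensity was set against the 75th percentile of non-control spots on its array. Spots with outlier flags were left out, spots of a probe averaged, and a probe needed over 50% of its spots above background to count as such. Each gene was read at its brightest probe (mean over the arrays). Probes were named through RefSeq (GRCm38.p6): 26055 by accession, 3195 by symbol, 930 by an older symbol and 9249 not. A gene above background on 1 array is given as a bound against the lowest level above background on the other, or the probe's own level there if higher. Some genes not above background read higher than that lowest level, so a bound holds under this rule and is not a strict limit. For the 216 probes spotted repeatedly and above background, single-spot log2 differences had a median SD of 0.0440. The 11 ligand probes were each spotted 1 time. Groups came from the labels. A gene was counted as lower or higher from 2-fold, a log2 difference of 1, upward. No p-value was computed.

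The members, the 12 gene lists and the rules were chosen with earlier results of these data known. A listed item is not reported here. Named are all members, up to 4 genes of each list with the largest differences, receptors of members, and up to 3 brightest markers; the rule's 3 genes nearest to Cxcl10 by level are left out, since levels of different probes cannot be compared. The calculation was tested on simulated data. R 4.3.3 with limma 3.58.1 gave the normexp values (offset 50), and Python 3.11.15 the rest. Alternatives are in the closing section.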

Additional observations from a re-analysis of the deposited data

How the results depend on the processing

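All 5 measured ligands stayed below 0 in each of the 10 alternatives planned, where they gave a value, and 3 or 4 were at least 2-fold lower in each. Of all measured genes, 4.45% to 8.85% were that much lower in the settings for which this share was computed. The median over the measured ligands was -1.44 with normexp, -2.04 with quantile normalization, -2.03 with median scaling, -1.82 over genes above background on both arrays (without Cxcl14) and -0.92 with no filter on dim probes, which adds Cxcl1, Cxcl9 and Cxcl12 at or near background. Without Cxcl11, a setting added after the data were seen, it was -3.09; leaving out the only measured ligand within 2-fold can move the median no other way and leaves the count of 4 as it is. With no filter 1 ligand, Cxcl12, counted as at least 2-fold higher from readings not well above background. Over all 13773 measured genes, the count at 2-fold was 789 higher and 613 lower with normexp, where 1240 and 1150 are reported. The 12565 genes above background on both arrays gave 793 higher and 693 lower, and 3 of the 4 ligands among them were lower by as much. Without a filter, 1760 of the 22801 named genes were lower. The deposited value table, kept outlier spots, counting by bounds, scaling over probes above background and the median over probes moved none of these by more than 1.5 times or by more than the single-spot SD. For single ligands, 15 values moved by more than that SD and 34 did not. Signal over background limits Cxcl2, Cxcl10 and Cxcl14 most, since their knockdown spots were dim. No paired analysis was possible because each group has 1 array, and for the same reason no array could be left out.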
